A study of Mus musculus with 6 samples.

Results

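Granzymes and the proteins packed with them were measured in 6 RNA sequencing libraries from acid-injured lungs of old and young mice. The 10 genes examined were the granzymes Gzma, Gzmb, Gzmc, Gzmd, Gzme, Gzmf and Gzmk, the pore-forming protein Prf1, the granule membrane protein Nkg7 and the cystatin Cst7. They had been selected on earlier old-against-young values of these same libraries, and each was kept where an intact identifier and 6 readable FPKM values (fragments relative to both the length of a gene and the size of a library) were found. This left 7 of the 10, out of 19033 genes kept in all. Gzmd, Gzme and Gzmf had no intact row and are not analysed here.

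The libraries came from 3 old and 3 young C57/BL6 mice, 1 library per mouse. Every mouse of both groups had received an acid injury, and each library is labelled as lung endothelial cells. Exact ages, the sex of the mice and the interval after injury were not stated, and the protocol mentions homogenized tissue but no cell isolation. Values for 3 libraries are always listed in the order of mouse 1, 2 and 3. No uninjured library was analysed here, so the comparison is old against young after injury.

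Cytotoxic granules are secretory lysosomes of natural killer cells and cytotoxic T cells. Perforin opens the membrane of the target cell, and granzymes, a family of serine proteases, enter through it and cleave substrates that lead to death of that cell. Granzymes are made as inactive precursors and are activated in the granule by the protease cathepsin C, while cystatin F, the product of Cst7, inhibits that protease. Granzyme genes are also transcribed in some mast cells, basophils and other leukocytes, and granzyme release without perforin has been linked to cleavage of extracellular matrix.

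The label was checked against marker genes in the same libraries before the granule genes were compared. All 8 tested endothelial markers were lower in old mice, with Pecam1, an adhesion molecule of endothelial junctions, at 3.73, 6.02 and 7.90 FPKM in the old libraries, against 111, 80.2 and 40.05 FPKM in the young. Libraries also stood apart within the groups. T cell markers summed to 537 FPKM in old mouse 2 and to 11.6 to 109 FPKM in the other 5 libraries. Neutrophil markers summed to 24328 and 24864 FPKM in young mice 2 and 3 and to 55.9 to 942 FPKM elsewhere. Young mouse 1 had the lowest sums for the natural killer, T, mast cell and neutrophil lists. In bulk RNA, a change in the number of cells of a type and a change in RNA per cell cannot be told apart.

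The promoters of the 6 genes on which the comparison turns are shown first, so that genes with different library patterns can be set side by side. Each is the 200 bases before the RefSeq start on build GRCm38.p6, written 5′ to 3′ on the gene's strand. Gzmb, Gzmc, Nkg7 and Cst7 had old and young values that did not overlap, whereas Gzma and Prf1 overlapped. Capitals mark matches on either strand to TGTGGT (the core of RUNX sites), TGACGTCA (the cyclic AMP response element), TGANTCA (AP-1), AGGTGTGA (T-box) or TATAAA (the TATA box).
Gzmb, chr14:56262335-56262534, minus strand: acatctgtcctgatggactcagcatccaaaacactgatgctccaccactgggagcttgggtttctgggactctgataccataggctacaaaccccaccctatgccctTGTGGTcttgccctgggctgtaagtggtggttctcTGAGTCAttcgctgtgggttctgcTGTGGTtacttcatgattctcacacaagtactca
Gzmc, chr14:56234658-56234857, minus strand: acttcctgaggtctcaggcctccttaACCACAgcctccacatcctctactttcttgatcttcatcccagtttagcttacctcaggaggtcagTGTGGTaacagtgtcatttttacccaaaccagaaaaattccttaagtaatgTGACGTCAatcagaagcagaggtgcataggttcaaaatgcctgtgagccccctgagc
Nkg7, chr7:43436938-43437137, plus strand: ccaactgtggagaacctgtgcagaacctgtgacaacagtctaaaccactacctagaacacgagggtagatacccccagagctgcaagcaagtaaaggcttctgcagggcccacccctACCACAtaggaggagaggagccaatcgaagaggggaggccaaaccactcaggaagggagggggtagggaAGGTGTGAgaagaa
Cst7, chr2:150570215-150570414, plus strand: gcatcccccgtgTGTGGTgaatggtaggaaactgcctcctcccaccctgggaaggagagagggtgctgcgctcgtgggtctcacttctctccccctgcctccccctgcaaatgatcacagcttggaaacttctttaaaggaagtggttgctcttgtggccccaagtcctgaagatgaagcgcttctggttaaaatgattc
Gzma, chr13:113100982-113101181, minus strand: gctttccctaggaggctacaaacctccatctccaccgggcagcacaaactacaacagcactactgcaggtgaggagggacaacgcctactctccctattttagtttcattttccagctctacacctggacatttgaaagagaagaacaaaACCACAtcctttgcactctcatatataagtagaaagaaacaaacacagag
Prf1, chr10:61297636-61297835, plus strand: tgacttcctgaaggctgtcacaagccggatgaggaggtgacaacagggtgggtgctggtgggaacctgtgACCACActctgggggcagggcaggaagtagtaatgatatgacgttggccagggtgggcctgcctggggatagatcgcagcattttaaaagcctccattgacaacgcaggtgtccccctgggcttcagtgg

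Within those 200 bases, the 6 letters TGTGGT were present on 1 strand or the other in 9 of the 10 genes, Gzmk being the exception. They were present in 11.2% of 32851 RefSeq promoters of the same length. TGACGTCA stood in Gzmc and Gzmf, against 1.47% of all promoters, and AGGTGTGA only in Nkg7 among the 10, against 0.907% of all. TGANTCA stood in Gzmb, against 5.48% of all promoters, and TATAAA in 0 of the 10, against 9.96%. The motifs were chosen with the promoters of these genes in view, so the counts are a description, and binding was not tested. The promoters of Gzmc, Gzmd, Gzme and Gzmf are related in sequence. The 250 upstream bases were compared without gaps at the offset of highest identity, so fewer bases were aligned. Gzmd and Gzmf shared 88.2% of 229 bases, and Gzmc and Gzmd 57.7% of 246. Gzma and Gzmb shared 31.1% of 235 bases, and all pairs with Gzma, Gzmb or Gzmk were at 30.9% to 34.5%.

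Granzyme B, the granzyme that cleaves after aspartate and can activate caspases, was encoded by the kept granzyme gene with the highest level in old mice 1 and 3. Gzmb (chromosome 14, 56258838 to 56262260 in GENCODE M21, GRCm38) had 118, 188 and 130 FPKM in the old libraries. The young libraries had 4.06, 11.6 and 15.8 FPKM. All 3 old libraries were above all 3 young, and the lowest old value was 7.49 times the highest young value. The group means were 145 ± 37.2 FPKM and 10.5 ± 5.93 FPKM (SD, n = 3 each). On the log2(FPKM + 1) scale, old minus young was 3.81 ± 0.56 (SE), a 14.0-fold difference. Between 102 and 3312 fragments lay behind each value.

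Granzyme C is a mouse granzyme of the same chromosome 14 cluster, and its gene had a like pattern at a lower level. Gzmc (56231441 to 56234656) was at 41.3, 28.1 and 38.3 FPKM in the old libraries, against 0, 0.897 and 2.44 FPKM in the young. The groups did not overlap, and 0, 13 and 34 fragments were found in the young libraries against 299 to 642 in the old. The difference was 4.29 ± 0.54 (SE) on the log2(FPKM + 1) scale, and 5.81 with a pseudocount of 0.1 in place of 1. Gzmb exceeded Gzmc in FPKM by 2.86-fold, 6.67-fold and 3.40-fold in old mice 1, 2 and 3. Of the 845 stretches of 50 bases in Gzmc transcripts, 4.14% also occur in transcripts of other genes, most often Gzme. For Gzmd and Gzme that share was 21.9% and 20.6%, so how fragments of the cluster were divided between its genes is uncertain. Gzma, Gzmb, Gzmk, Prf1, Nkg7 and Cst7 shared 0 such stretches with other genes.

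Granzyme A, a granzyme that cleaves after basic residues, had a gene that was high in 1 library. Gzma (chromosome 13, 113093825 to 113100981) was at 23.5, 1385 and 4.89 FPKM in the old libraries, against 1.29, 14.6 and 7.11 FPKM in the young. Old mouse 2 alone held 13837 of the 14499 fragments counted for the gene in the 6 libraries. There Gzma ranked 25th by FPKM among 19033 genes, against rank 1823 in old mouse 1 and 5165 in old mouse 3. The groups overlapped, since old mouse 3 was below young mice 2 and 3. Old minus young was 3.15 ± 2.50 (SE) on the log2(FPKM + 1) scale, and 0.86 without old mouse 2. The summed T cell markers were highest in the same library. Cd3g, a chain of the T cell receptor complex that was chosen after its values were seen, reached 183 FPKM in old mouse 2, against 0.105 to 16.2 FPKM elsewhere. Cd7 and Klrd1 of the natural killer list, looked at after their values were seen, were highest in old mouse 2 too, at 106 and 32.0 FPKM. The summed natural killer markers were highest in young mouse 3, at 309 FPKM against 273 FPKM in old mouse 2. The parts of T cells and natural killer cells in the Gzma value were not tested.

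Granzyme K, a relative of granzyme A in the same region of chromosome 13, was close to its detection limit. Gzmk (113171608 to 113225908) was at 0.109, 0.443 and 0 FPKM in the old libraries, against 0.731, 0.0928 and 0.242 FPKM in the young. Only 34 fragments in all 6 libraries lay behind these values, and the groups overlapped. With 3 fragments as a floor, values under 0.1204 to 0.190 FPKM were at or under it, depending on the library. Old minus young was -0.18 ± 0.25 (SE) on the log2(FPKM + 1) scale, and -0.76 and -1.72 with pseudocounts of 0.1 and 0.01. It changed sign without young mouse 1, to 0.0059.

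Perforin, through which granzymes reach the inside of a target cell, had a gene that was low in both groups. Prf1 (chromosome 10, 61297833 to 61304680) was at 0.516, 1.24 and 0.516 FPKM in the old libraries, against 0.357, 0.157 and 0.784 FPKM in the young. The groups overlapped, and each value rested on 5 to 29 fragments. Old minus young was 0.29 ± 0.26 (SE) on the log2(FPKM + 1) scale, and 0.76 and 0.94 with pseudocounts of 0.1 and 0.01. Gzmb exceeded Prf1 in FPKM by 229-fold, 151-fold and 252.5-fold in old mice 1, 2 and 3. In young mice 1, 2 and 3 it did so by 11.4-fold, 73.9-fold and 20.1-fold. The ratio of Gzmb to Prf1 was therefore higher in each old library than in each young one, with few perforin fragments behind it. Gzmb had been chosen with this contrast known, so this split is a description. The ratios of Nkg7 and Gzma to Prf1 overlapped between the groups. For Nkg7 the ratio was 121 in old mouse 3 against 138 in young mouse 2, and for Gzma 9.48 against 93.1.

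Nkg7 encodes a membrane protein of cytotoxic granules with a role in their release. Nkg7 (chromosome 7, 43437073 to 43438249) was at 222, 161 and 62.6 FPKM in the old libraries, against 2.22, 21.6 and 40.1 FPKM in the young. The groups did not overlap, but the gap was narrow: old mouse 3 was 1.56 times young mouse 3. Old minus young was 3.20 ± 1.23 (SE) on the log2(FPKM + 1) scale, and 2.12 without young mouse 1.

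Cystatin F, the inhibitor of cathepsins C and L, is made by several kinds of leukocyte. Its gene Cst7 (chromosome 2, 150570415 to 150578944) was at 144, 36.1 and 43.7 FPKM in the old libraries, against 0, 3.14 and 2.93 FPKM in the young. The groups did not overlap, and old mouse 1 was 3.99 times old mouse 2. Old minus young was 4.62 ± 0.91 (SE) on the log2(FPKM + 1) scale, and 5.94 with a pseudocount of 0.1.

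**Figure D1:**
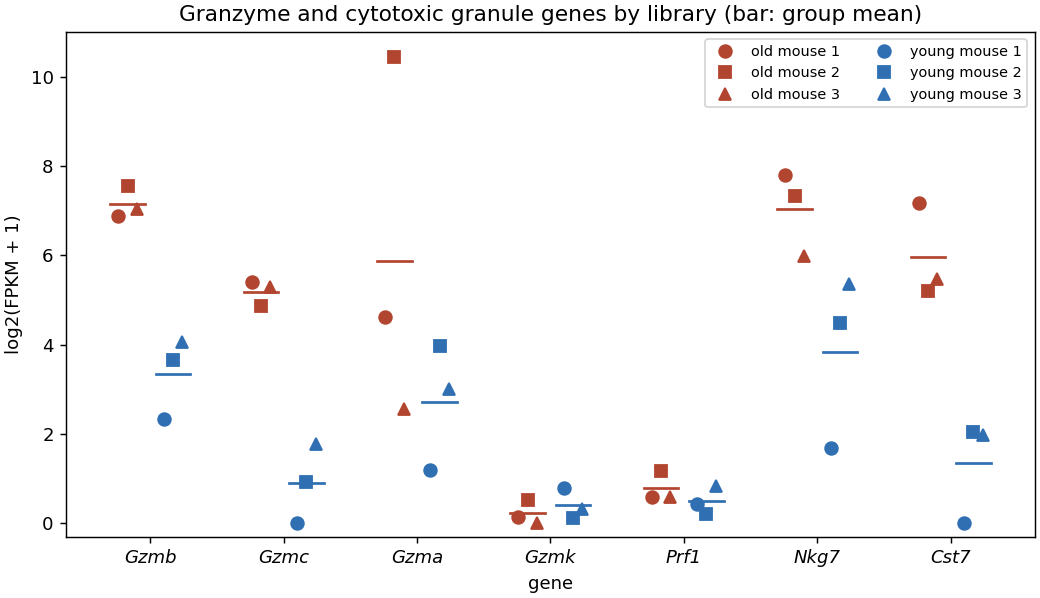
Each point is the log2(FPKM + 1) value of 1 gene in 1 library, red for old and blue for young mice, with the shape giving the mouse and the bar the group mean. Old and young points are separate for Gzmb, Gzmc, Nkg7 and Cst7, Gzma is high in old mouse 2 alone, and Gzmk and Prf1 lie near 0 in both groups.

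Across the 7 genes, the median log2 difference was 3.20, beside -0.01 for the 10010 tested genes, those with a mean of at least 1 FPKM. Of the 7, 5 had such a mean, while Prf1 at 0.595 FPKM and Gzmk at 0.270 FPKM did not. Old values were above young without overlap for 4 of the 7, and these 4 were all among the 5 with such a mean. Of all tested genes, 14.5% were above without overlap and 16.7% were below. The genes had been chosen with this contrast known, so these values only describe them.

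Both the sum and the make-up of the granule transcripts differed from library to library. The summed FPKM of the 7 genes was 550, 1799 and 280 in old mice 1, 2 and 3, and 8.65, 52.0 and 69.3 in young mice 1, 2 and 3. Old mouse 3, the lowest of the old, was above every young library. Nkg7 made up the largest share in old mouse 1, at 40.4%, followed by Cst7 at 26.2%. Gzma made up 77.0% in old mouse 2, and Gzmb 46.5% in old mouse 3. In young mouse 1 Gzmb made up 46.9% of a small sum, and Nkg7 led in young mice 2 and 3, at 41.4% and 57.8%. Thus 3 different genes led in the 3 old libraries. Prf1 made up 0.0690% to 0.184% of the sum in old libraries and 0.301% to 4.13% in young ones.

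**Figure D2:**
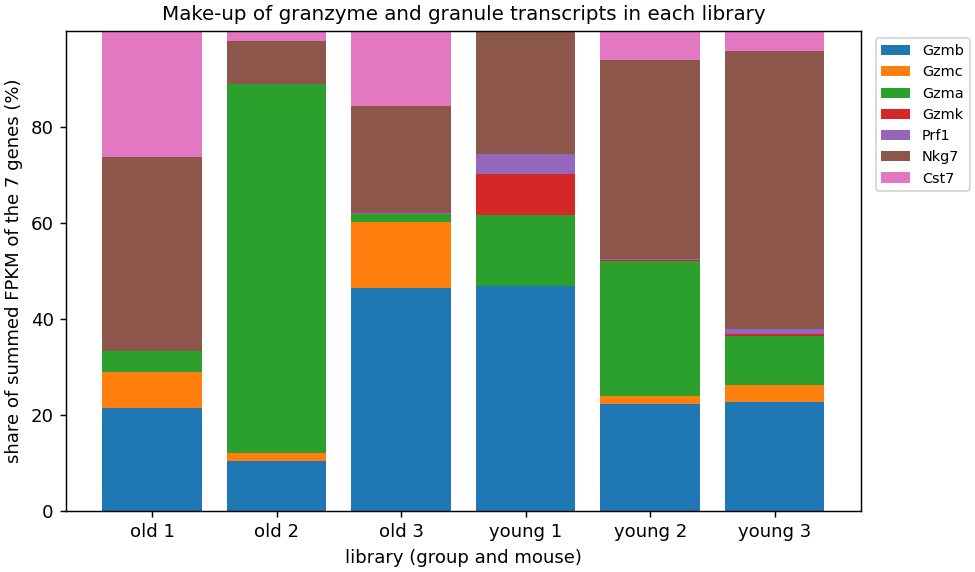
Each bar is 1 library and each colour the share of 1 gene in the summed FPKM of the 7 genes, in percent. Gzma fills 77.0% of the bar of old mouse 2, whereas Gzmb, Nkg7 and Cst7 fill most of those of old mice 1 and 3.

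Over the 6 libraries, Gzmb and Gzmc followed each other (Pearson's r = 0.98 on log2 values, n = 6), as did Gzmc and Cst7 (r = 0.97) and Gzmb and Nkg7 (r = 0.91). Gzma followed Gzmb less closely (r = 0.65). These r values describe 6 points that share the split between old and young libraries. Among 8885 other tested genes, those most like Gzmb were Fam213a, Rhou and Hsd11b1, which encodes an enzyme that activates glucocorticoids, at r = 0.997, 0.997 and 0.993. Those most like Gzmc were Nt5dc2, Cd200r3 and Nmnat3, each at r of 0.996 or 0.997. Those most like Cst7 were Tm2d3, Wdr61 and Rpa3 at r = 0.998, 0.994 and 0.994, and those most like Nkg7 were Nr4a3, Mphosph6 and Sept6 at r = 0.997, 0.992 and 0.990. Gzma was most like Ctf1 (r = 0.98), Tcrg-C4, a constant gene of the gamma chain of the T cell receptor (r = 0.98), and Reg3g (r = 0.98). Tcrg-C4 reached 39.1 FPKM in old mouse 2, against 0 to 4.45 FPKM elsewhere, and Gzma was highest in the same library. Such r values take no account of the size of a change. Tm2d3 was at 35.7 to 40.6 FPKM across the old and 27.4 to 30.8 FPKM across the young libraries. By limma, the genes most like Gzmb were called, as were Nt5dc2 and Cd200r3. Nmnat3 and the genes most like Cst7, Nkg7 and Gzma were not called.

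Genes that act around the granule were compared from 9 lists of 96 genes, of which 56 in 8 lists were intact and above 1 FPKM. Of these 56, 3 rose in old mice and 0 fell by limma (14 had an unadjusted p under 0.05), a share of 5.36% beside 4.98% of all tested genes (2.95% higher and 2.03% lower in old). An unadjusted p under 0.05 was reached by 2315 of the 10010 genes tested, or 23.1%, and the unadjusted counts of each list are to be read beside that share. The 3 other granzymes listed, Gzmg, Gzmm and Gzmn, had no intact row and are not analysed here.

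Among granule carriers and activating proteases, 1 of 7 rose by limma (1 at an unadjusted p under 0.05), with a list median of 0.47 on the log2 scale. This was Cd63, a tetraspanin of lysosomes and secretory granules in many cell types, at 1019, 1518 and 1231 FPKM in the old libraries, against 272, 551 and 399 FPKM in the young. It rose by 1.66 ± 0.34 on the log2 scale (SE, limma adjusted p = 0.0412), and the call ended in 8 of 14 alternatives (highest adjusted p = 0.129). Ctsc, the cathepsin that activates granzymes, was chosen after its values were seen: it was at 38.6 to 84.6 FPKM across the old and 3.64 to 105 FPKM across the young libraries, so the groups overlapped.

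In the granule release machinery, 1 of 5 rose by limma (2 at an unadjusted p under 0.05) and the list median was -0.38. Sytl3, a synaptotagmin-like protein that binds RAB27, was at 2.39, 4.81 and 3.22 FPKM in the old libraries, against 0, 0.372 and 0.604 FPKM in the young. The log2 difference was 1.75 ± 0.32 (SE, limma adjusted p = 0.0310), and the call ended in 10 of 13 alternatives (highest adjusted p = 0.147). Of the inhibitors that protect cells from their own granzymes, 0 of 4 were called by limma (0 at an unadjusted p under 0.05; median -0.12). Serpinb6b was at 32.2 to 69.1 FPKM across the old and 14.4 to 45.3 FPKM across the young libraries, and Serpinb6a at 25.0 to 45.5 against 31.0 to 49.3 FPKM.

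Among cysteine cathepsins and other cystatins, 1 of 7 rose (4 at an unadjusted p under 0.05; median -0.09). Ctsk, the collagen-degrading cathepsin K, was at 79.3, 151 and 119 FPKM in the old libraries, against 9.89, 6.78 and 6.79 FPKM in the young. The groups were far apart, with a log2 difference of 3.70 ± 0.31 (SE, limma adjusted p = 0.00451), and the call held in 14 of 14 alternatives. The stefin genes Stfa1, Stfa2 and Stfa3 were listed at 0 in all 3 old libraries and had larger differences in the other direction, of -5.27, -5.38 and -4.42, without passing (limma adjusted p = 0.144, 0.171 and 0.183). They were named after their values were seen, and in young mouse 1 they were at 0.540, 0.133 and 0 FPKM.

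Transcription factors of the cytotoxic lineage gave 0 of 8 calls by limma (0 at an unadjusted p under 0.05; median 0.36). Id2, needed for natural killer cells, was at 192 to 455 FPKM across the old and 267 to 766 FPKM across the young libraries, and Nfil3 at 28.0 to 51.6 against 6.77 to 60.8 FPKM. Of the 8 differences, 5 were positive. The inducing cytokines and receptors gave 0 of 8 calls (5 at an unadjusted p under 0.05; median 0.42). Il2rg, the shared chain of interleukin receptors, was at 10.8 to 16.1 FPKM across the old and 24.6 to 31.5 FPKM across the young libraries, without passing (limma adjusted p = 0.0752). Il18 was at 21.5 to 52.9 against 3.79 to 56.6 FPKM.

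Death ligands, receptors and effector cytokines gave 0 of 8 calls by limma (1 at an unadjusted p under 0.05; median 1.22). The chemokine genes Ccl4 and Ccl3 were the most abundant, Ccl4 at 847 to 2458 FPKM across the old and 26.6 to 905 FPKM across the young libraries, and Ccl3 at 494 to 980 against 8.62 to 720 FPKM. Both low ends were young mouse 1. Granzyme and caspase substrates gave 0 of 9 calls (1 at an unadjusted p under 0.05; median 0.12). Hmgb2, a chromatin protein cleaved by granzyme A, was at 139 to 632 FPKM across the old and 74.4 to 167 FPKM across the young libraries, and Mcl1, an inhibitor of apoptosis, at 82.5 to 111 against 79.5 to 195 FPKM.

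**Figure D3:**
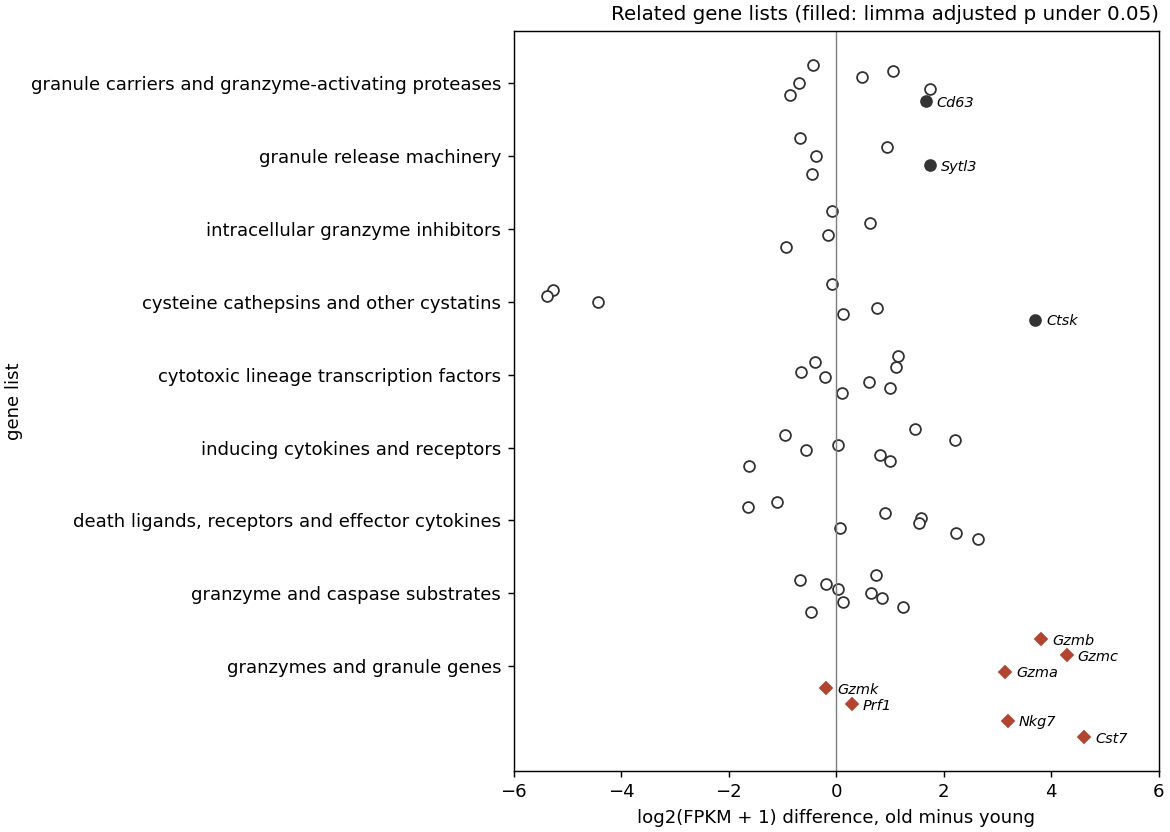
Each circle is 1 tested gene of a list, placed at its log2(FPKM + 1) difference of old minus young, and filled where the limma adjusted p is under 0.05. Of the 56 circles 3 are filled (Cd63, Sytl3 and Ctsk), and the red diamonds show the 7 granzyme and granule genes, which were chosen with this contrast known and are not marked for a test.

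Markers of the cells that could carry granzyme transcripts were read in the same libraries. Of the 50 tested genes in 7 marker lists, 6 rose and 9 fell by limma (27 at an unadjusted p under 0.05). This was a share of 30%, beside 4.98% of all tested genes. Of the 9 falls, 8 were endothelial markers. The lists were chosen with earlier results of these data known, so the share is a description. Natural killer markers gave 0 of 6 calls by limma (2 at an unadjusted p under 0.05; median 0.83). Of the 16 listed natural killer genes 13 were kept, and Ncr1, Klrb1c and Klre1 were not. The summed FPKM of those 13 was 104 to 273 in old and 6.24 to 309 in young libraries, with young mouse 3 the highest. Fcgr3, an Fc receptor also found on myeloid cells, made up much of that sum, at 71.7 to 197 FPKM across the old and 4.94 to 275 FPKM across the young libraries. Cd7, carried by natural killer and T cells, was at 18.6, 106 and 14.96 FPKM in the old libraries, against 0.349, 2.73 and 6.69 FPKM in the young, without passing (limma adjusted p = 0.0861). Klrd1, an NK receptor chain chosen after its values were seen, had 7.09, 32.0 and 6.27 FPKM in the old libraries, against 0, 2.31 and 5.19 FPKM in the young, without passing (limma adjusted p = 0.172). Of the 13 kept genes, 3, 1 and 3 were at 0 in the old libraries and 5, 1 and 1 in the young.

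Of the T cell markers, 1 of 12 rose by limma (5 at an unadjusted p under 0.05, median 1.34). Their sum over 18 kept genes was 74.5 to 537 FPKM across the old and 11.6 to 71.1 FPKM across the young libraries. The gene called was Thy1, which fibroblasts carry as well, at 24.2, 51.7 and 18.7 FPKM in the old libraries, against 1.76, 3.75 and 4.80 FPKM in the young. It rose by 2.81 ± 0.45 on the log2 scale (SE, limma adjusted p = 0.0235), and the call ended in 5 of 14 alternatives (highest adjusted p = 0.0656). Without Thy1, the T cell sums of the groups overlapped.

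Mast cell and basophil markers were the list of leukocyte markers with the highest median, at 4.10, and 2 of 6 rose by limma (5 at an unadjusted p under 0.05). Only these 6 of the 14 listed genes were kept, and all but Cd200r3 encode proteases. Cpa3, Fcer1a, Ms4a2, Kit, Gata2 and Hdc were among those not kept. Mcpt2, a mast cell protease, was at 14.6, 47.9 and 18.5 FPKM in the old libraries and was listed at 0 in the 3 young ones (limma adjusted p = 0.00581). Cd200r3, a receptor of mast cells and basophils, was at 2.36 to 2.64 FPKM across the old and 0.00943 to 0.538 FPKM across the young libraries (log2 difference 1.42 ± 0.26 (SE), limma adjusted p = 0.0338, ended in 10 of 13 alternatives). The sum over 6 kept genes was 404, 272 and 1083 FPKM in the old libraries, against 2.13, 78.4 and 34.0 FPKM in the young, so the groups did not overlap. Mcpt8, the basophil granule protease, made up most of it in old mice 1 and 3 and in young mice 2 and 3. This gene, chosen after its values were seen, was at 360, 92.0 and 771 FPKM in old and 0.264, 69.6 and 33.4 FPKM in young mice.

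Of the myeloid progenitor granule markers, 1 of 4 rose by limma (3 at an unadjusted p under 0.05, median 3.68). Mpo, the granule peroxidase, was at 421, 15.5 and 68.9 FPKM in the old libraries, against 0, 1.56 and 1.20 FPKM in the young. It rose by 5.47 ± 1.10 (SE, limma adjusted p = 0.0408), and the call ended in 9 of 14 alternatives (highest adjusted p = 0.119). The sum over 4 kept genes was 80.3 to 2254 FPKM across the old and 17.8 to 65.8 FPKM across the young libraries. Old mouse 1 was highest in Mpo, Cst7 and Nkg7 alike, a match picked after the values were seen. Mpo and Cst7 were higher in old mouse 3 than in old mouse 2, whereas Nkg7 was lower. Among the old libraries, Gzmb was lowest in old mouse 1, at 118 FPKM. The cause of the match was not tested.

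Neutrophil markers gave 0 of 8 calls by limma (0 at an unadjusted p under 0.05; median -2.40), with S100a8 at 86.3 to 311 FPKM in the old libraries, against 20.9, 9995 and 9164 FPKM in the young. Without young mouse 1, S100a8 changed by -5.56 and S100a9 by -5.34 on the log2 scale and both were called (limma adjusted p = 0.0189 and 0.0114), so the absence of these calls depends on that library. S100a9 ranged from 182 to 516 FPKM in the old libraries, against 27.1, 11686 and 12541 FPKM in the young. Against young mouse 1 alone, the differences of S100a8 and S100a9 were positive, at 3.22 and 3.41. Plasmacytoid dendritic cell markers gave 2 rises and 1 fall of 6 by limma (4 at an unadjusted p under 0.05, median 1.17), with 4 of 6 differences positive. Their sum was lower in every old library, and most of it was Bst2, named after its values were seen, at 182 to 224 FPKM across the old and 287 to 732 FPKM across the young libraries. Siglech, a surface lectin of these cells, rose by 2.00 ± 0.34 (SE, limma adjusted p = 0.0274) and the kallikrein Klk1 by 2.71 ± 0.27 (adjusted p = 0.00670). Tcf4, a transcription factor that endothelial cells and fibroblasts share, fell by 1.38 ± 0.28 (SE, limma adjusted p = 0.0429). The calls ended in 10 of 13 alternatives for Siglech, 1 of 13 for Klk1 and 10 of 14 for Tcf4.

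Endothelial markers fell in 8 of 8 tested genes (median -3.38), the direction opposite to that of Gzmb and Gzmc. Vwf, the von Willebrand factor, fell by 3.46 ± 0.33 on the log2 scale (SE, limma adjusted p = 0.00668), and the call held in 14 of 14 alternatives. The endothelial receptor gene Tek fell by 3.74 ± 0.62 (limma adjusted p = 0.0247). On the same scale and test, Cdh5 changed by -3.45 ± 0.49 (0.0176), Pecam1 by -3.44 ± 0.43 (0.0115), Kdr by -3.33 ± 0.67 (0.0412) and Tie1 by -3.16 ± 0.54 (0.0265), with calls that ended in 8, 2, 2, 9 and 7 of 14 alternatives. The sum over 8 kept genes was 27.2 to 86.7 FPKM across the old and 343 to 844 FPKM across the young libraries. The part of any of these cell types in the granzyme values was not tested.

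**Figure D4:**
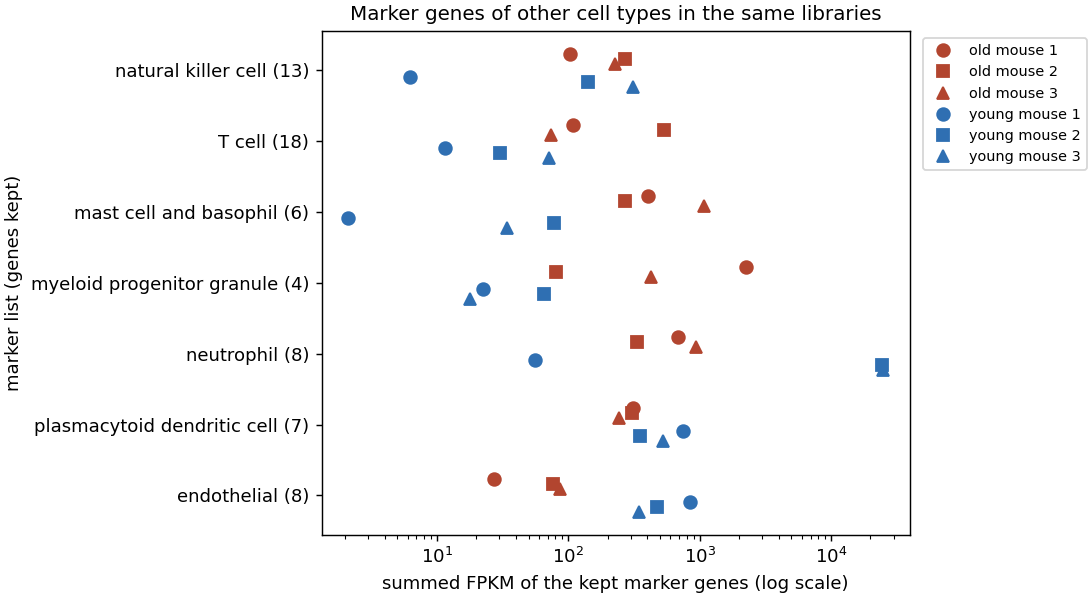
Each point is the summed FPKM of the kept genes of 1 marker list in 1 library, on a log axis, red for old and blue for young mice. Mast cell and basophil, myeloid progenitor and T cell sums are higher in every old library than in every young one. The T cell gap is narrow: 74.5 FPKM in old mouse 3 against 71.1 FPKM in young mouse 3. Thy1, which fibroblasts carry as well, is 18.7 and 4.80 FPKM of these sums. That difference is larger than the gap, so the T cell sums of the groups overlap without Thy1. Endothelial and plasmacytoid dendritic cell sums are lower in every old library (the latter mostly Bst2), and natural killer and neutrophil sums overlap.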

How the data were processed

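The 6 RNA sequencing libraries, 3 per age group, each came from a separate mouse per the labels. The p-values rest on the spread between libraries of separate mice, which includes any difference in preparation or cell make-up. The authors deposited FPKM values, per the file headers; counts were not used here. The submitters' processing notes list CASAVA (1.7), Bowtie (0.12.2) and build mm8 but do not say what each did; nothing used here names the counter. GENCODE M21 supplied symbols and GRCm38 coordinates, and RefSeq (GRCm38.p6) supplied promoters for 10 of 10 genes.

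Identifiers and values were damaged in part as received. Rows were kept with a known, well-formed, unique identifier and 6 readable numbers under 1000000. Values also had to imply whole fragments for 1 gene length (tolerance 1e-06 fragments plus a relative 3e-13). Of 24720 rows, 19037 passed (19033 after summing rows of 1 symbol). Of 19063 readable rows, 26 failed the whole-fragment step. No value was repaired. Another 18 columns held stray cells and were not used. Implied totals were 11381122 to 17931463 fragments per library, up to any scaling inside them; fragments, floors of 3 fragments and the precision they give cover counting error only. For a gene whose implied length differs from M21, the fragments are the fewest that fit.

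Genes with a mean of at least 1 FPKM (10010) entered a limma fit (limma 3.58.1, R 4.3.3) of log2(FPKM + 1) (variance trend, no covariates, two-sided, Benjamini-Hochberg threshold 0.05), checked on simulated data. This scale understates changes of low genes. Differences of the granule genes are plain differences of group means with SE from both groups' spread, without a test, because the genes were chosen with this contrast known. The members, lists and motifs were all chosen with earlier results of these data known. From each list, the called genes are named (at most 6, by size of change), or the 2 most abundant where none was called; likeness names the 3 genes with the highest r. Alternatives were 2 lower pseudocounts, no filter or one at 5 FPKM, median-ratio and upper-quartile scaling, a block on mouse number, each library left out, and young mouse 1 as the only young library. Fits that left out a library kept the filter set on all 6. Old against young mouse 1 was first fitted on 4 libraries, which called 0 genes; after that result was seen, it was replaced by a fit in which young mice 2 and 3 form a group of their own that adds to the estimated spread. Both are reported.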

Additional observations from a re-analysis of the deposited data

How the results depend on the processing

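The differences of Gzmb, Gzmc, Gzma, Nkg7, Cst7 and Prf1 kept their direction with both lower pseudocounts, both scalings, each library left out and young mouse 1 as the only young library. Gzmk changed sign without young mouse 1. The median over the 7 genes, 3.20, was 3.37 and 3.40 with pseudocounts of 0.1 and 0.01, ran from 2.38 to 3.95 with 1 library left out, and was 4.82 against young mouse 1 alone. The count of genes called over the whole table, 498, became 323 with a pseudocount of 0.01, 223 without a filter, 292 with a filter at 5 FPKM, and 84 to 403 with 1 library left out. The list genes called, 18, became 8, 7 and 5 to 14 with the pseudocount of 0.01, without a filter and with 1 library left out.

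Against young mouse 1 alone, the call depended on how the comparison was fitted. The fit of the 3 old libraries and young mouse 1, which was run first, called 0 genes and 0 list genes by limma, with 2289 genes at an unadjusted p under 0.05. The fit that replaced it after this result was seen takes young mice 2 and 3 as a group of their own, and called 612 genes and 29 list genes, with 2530 at an unadjusted p under 0.05. In both, the lone young library is assumed to vary like the others. The 14 alternatives counted beside single genes in the report include the second fit and not the first, in which every call ended. Of the genes named by rule from the lists, Nfil3, Il18, Ccl3, Ccl4, Fcgr3 and S100a9 gained a call in the second fit. S100a9 turned from -2.42 in the fit of old against young to 3.41 there. S100a8, without a call, turned from -2.63 to 3.22. The cause of these changes was not tested.

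With the mouse number as a replicate block, 126 genes (86.5% of them higher in old, against 59.2% without the block) and 4 list genes were called. Deviations of same-numbered libraries correlated at -0.0941, -0.00324 and 0.0102, so the numbers are not known to pair mice. Depth limits Prf1 and Gzmk.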

Other observations

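Gzmb and Gzmc lie at 1 end of a cluster of serine protease genes on chromosome 14, which holds 15 annotated protein-coding genes from Cma1 to Gzmb (55941451 to 56262260 in GRCm38, 321 kb). The cluster was looked at after the values were seen. Of its genes, 7 had an intact row. Besides Gzmb and Gzmc, which were chosen on this contrast, old values were above young without overlap for Mcpt2, Mcpt8, Mcpt1, a mast cell protease at 6.25, 76.8 and 4.39 FPKM in the old libraries, and Cma2, which at 0.118 to 0.278 FPKM in old libraries was close to 0. Mcpt1, Mcpt2 and Cma2 were at 0 in all 3 young libraries. The seventh, Mcpt9, reached 0.659 FPKM in old mouse 2 and was listed at 0 elsewhere. Of all tested genes, 14.5% were above without overlap, and Cma2 and Mcpt9 were too low to be tested. Mcpt8 and Mcpt1 were not called (limma adjusted p = 0.155 and 0.0679). The gap of Mcpt8 was narrow, at 92.0 FPKM in old mouse 2 against 69.6 FPKM in young mouse 2. Within the old group the neighbours did not share an order: Mcpt8 was highest in old mouse 3, Mcpt1, Mcpt2 and Gzmb in old mouse 2, and Gzmc in old mouse 1. Mast cell proteases have close relatives in the cluster, so their values are uncertain where reads fit several genes.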
